A study of Mus musculus with 56 samples.

Results

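Hepatic glucose production and its control were followed here through 8 genes in the livers of mice given locked nucleic acid (LNA) gapmers, chemically stabilised antisense oligonucleotides with a DNA centre that recruits RNase H to a complementary RNA. The 8 genes were Pck1, G6pc, Fbp1, Slc2a2, Pklr, Foxo1, Irs2 and Ppargc1a, chosen by symbol out of 18194 genes on the array, and 19 probe sets were annotated to 1 of them alone. Male CD-1 mice, 6 to 8 weeks old at the start, fed freely under a 12-hour light and dark cycle, received 25 mg/kg of a gapmer or its vehicle, Dulbecco's phosphate buffered saline, under the skin. The gapmers are called HTS-3, a severely toxic sequence, TS-2, a toxic one, and NTS-1, a non-toxic one, and no source used here gives the RNAs they target. After a single dose livers were taken at 8, 16 and 72 h, with 3 and 4 arrays for HTS-3 at 8 and 16 h, 4, 3 and 4 for TS-2, 3, 4 and 3 for NTS-1, and 3 at each time for vehicle. HTS-3 had no 72 h group, because its mice were dead or moribund at least 48 h after the dose. In the 2-week study doses were given on days 1, 4, 8 and 11 and livers were taken on day 14, with 5 arrays for TS-2, 4 for NTS-1 and 10 for vehicle. Each array held 1 mouse, which the labels call a biological replicate. In the single-dose study the 3 or 4 livers hybridised were those ranked highest for minor hepatic hypertrophy out of 10 mice dosed per group and time, so the mice are not a random draw from their groups.

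The liver releases glucose by breaking down glycogen and by gluconeogenesis, the synthesis of glucose from lactate, glycerol and amino acids. Pck1 encodes the cytosolic phosphoenolpyruvate carboxykinase, which turns oxaloacetate into phosphoenolpyruvate, Fbp1 the fructose-1,6-bisphosphatase further along the path, and G6pc the catalytic subunit of glucose-6-phosphatase, the last step of both gluconeogenesis and glycogen breakdown. Slc2a2 encodes GLUT2, the main glucose transporter of the hepatocyte membrane. Pklr encodes the liver pyruvate kinase, which catalyses the last step of glycolysis, the opposite direction, and is induced by carbohydrate feeding. Glucagon, through cAMP, and glucocorticoids induce Pck1 and G6pc in fasting, with help from the coactivator PGC-1alpha, the product of Ppargc1a. Insulin acts through Irs2, an adaptor of its receptor, and through Akt, which phosphorylates the forkhead factor FoxO1, the product of Foxo1, and thereby removes it from the nucleus. Many of these genes also follow the feeding rhythm and the circadian clock.

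The 56 arrays fell into 2 sets with different floors. The 37 single-dose arrays shared a lowest intensity of 4.56, which 44.1 to 47.3% of the probe sets on an array held, whereas the lowest value on each of the 19 2-week arrays was 6.10 to 6.92, so the sets were fitted apart and no level was compared across them. On the single-dose arrays Irs2 did not exceed 10.15 and Ppargc1a did not exceed 13.96, and both stayed below the limit of 32 that a gene had to reach on at least 3 arrays to be tested. The single-dose results therefore rest on 6 of the 8 genes and the 2-week results on all 8, among 9134 and 13812 genes tested. The hepatocyte markers on the array, 6 of 8 listed, were bright on all arrays, summing to 129872 to 136701 in TS-2 livers, 127275 to 134377 in NTS-1 livers and 122359 to 132290 in vehicle livers at 2 weeks. Under TS-2 3 of these 6 passed the test, 2 higher and 1 lower. The HTS-3 mouse 3 of the 8 h group is an 8 h liver by its title and a 16 h liver by its description. It was kept at 8 h, and its level of the clock gene Dbp, 9025.73, lay within the 8 h range. In livers as a whole, fewer cells of a type and less RNA per cell cannot be told apart.

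The 250 bases before the annotated start are printed for Pck1 and G6pc, the genes most often used to follow gluconeogenic control, and for Irs2, whose level also changed. They come from RefSeq on GRCm38.p6, in which all 8 genes had a window among 32851. Capitals mark TGACG, the core of the cAMP response element, TGTTT, the core bound by forkhead factors, and CACGTG, an E-box of the kind bound by clock and carbohydrate-response factors, each searched on both strands. Pck1 lies at chr2:173152823-173153072 on the plus strand, G6pc at chr11:101367466-101367715 on the plus strand, and Irs2 at chr8:11008930-11009179 on the minus strand.
Pck1: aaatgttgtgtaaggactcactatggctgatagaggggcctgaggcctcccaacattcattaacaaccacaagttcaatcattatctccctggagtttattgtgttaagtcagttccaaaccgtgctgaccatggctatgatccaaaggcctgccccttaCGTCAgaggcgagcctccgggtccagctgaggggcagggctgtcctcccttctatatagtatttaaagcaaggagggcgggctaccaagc
G6pc: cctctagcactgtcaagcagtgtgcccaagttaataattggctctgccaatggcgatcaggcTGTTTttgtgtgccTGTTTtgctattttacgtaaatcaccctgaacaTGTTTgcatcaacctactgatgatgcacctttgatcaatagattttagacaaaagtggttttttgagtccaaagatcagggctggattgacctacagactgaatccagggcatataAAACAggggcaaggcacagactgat
Irs2: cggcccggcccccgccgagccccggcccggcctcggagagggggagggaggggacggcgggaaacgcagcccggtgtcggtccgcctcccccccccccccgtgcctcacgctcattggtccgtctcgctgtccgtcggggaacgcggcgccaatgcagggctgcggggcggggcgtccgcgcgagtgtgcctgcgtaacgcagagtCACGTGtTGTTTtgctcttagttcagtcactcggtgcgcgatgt
The Pck1 window held TGACG once, read on the minus strand and 90 bases before the start, and no TGTTT, whereas 17.8% of all windows held TGACG. The full palindrome TGACGTCA was in none of the 3 printed windows and in 1.55% of all windows. G6pc carried TGTTT 4 times, at 188, 174, 141 and 25 bases before the start, the last on the minus strand and overlapping a TATAAA at 29 bases. The copy at 174 bases was part of TGTTTTG, the form of the insulin response element, which 5.56% of windows held, as against 46.4% for TGTTT alone. In Irs2 the CACGTG, present in 6.02% of windows, stood at 44 bases before the start, and the same longer forkhead form as in G6pc followed it at 37 bases. Foxo1 held 1 TGTTT at 196 bases and Ppargc1a 1 TGACG at 49 bases, both on the minus strand, and Pklr a TATAAA at 31 bases, a motif in 12.4% of windows. No match was found in the windows of Slc2a2 and Fbp1, and TGTTCT, a glucocorticoid receptor core found in 16.1% of windows, was in none of the 8. A match is a run of letters and not a measured binding site.

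After 2 weeks of TS-2 the last enzyme of glucose release and the glucose transporter were lower, and a transcription factor and an adaptor of insulin signalling were higher, than in vehicle livers. G6pc fell 3.35-fold on average and Slc2a2 1.45-fold, while Foxo1 rose 1.54-fold and Irs2 1.30-fold. Pck1, Fbp1, Pklr and Ppargc1a did not pass the test. Thus 4 of the 8 genes were called at an adjusted p under 0.05 (limma, Benjamini-Hochberg over 13812 genes), in a comparison in which 38.9% of all genes were called, so the share among the 8 was near the background. Both rises stood against 23.8% of all genes called higher, and both falls against 15.1% called lower. No gene of the 8 separated TS-2 from vehicle without overlap, as 11.9% of all genes did. The median change of the 8 was 0.01 on the log2 scale, against -0.00 for all genes. Under NTS-1 none of the 8 passed, with 5.43% of all genes called, and the lowest adjusted p among them was 0.318.

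**Figure D1:**
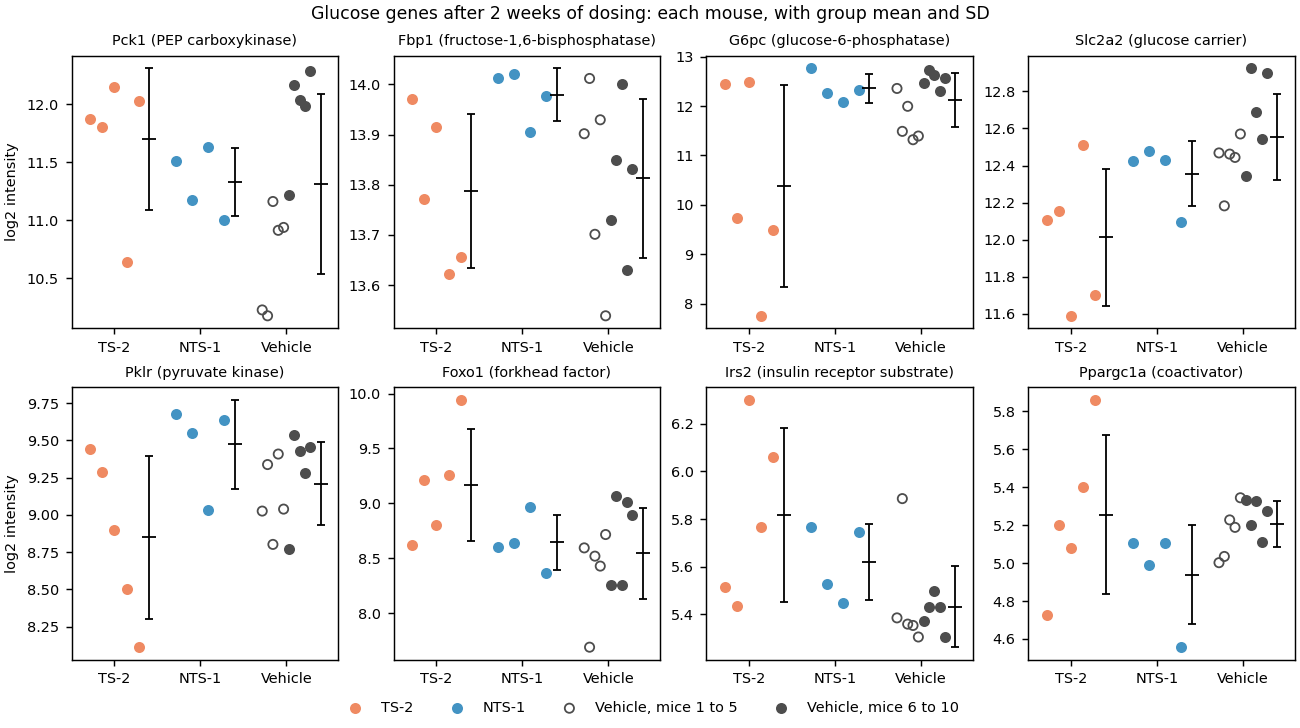
Log2 intensity of each of the 8 genes in the 2-week livers, 1 point per mouse, with TS-2 left of NTS-1 and vehicle, open points for vehicle mice 1 to 5, and the group mean and SD as a bar beside the points. The TS-2 points for G6pc stand for intensities of 216.08 to 5729.32, and no gene separates TS-2 from vehicle without overlap.

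Pck1, an early enzyme of the path, showed a wide spread among vehicle mice. Its intensity was 3752.42, 3579.62, 4539.78, 1592.35 and 4182.22 in the 5 TS-2 mice, 2923.87, 2310.12, 3179.73 and 2051.13 in the NTS-1 mice, and ran from 1156.61 through a median of 2337.78 to 4994.68 in the vehicle mice. Of the 5 TS-2 mice 4 lay close together, mouse 4 lay low, and all 3 groups overlapped. The change under TS-2 was 0.39 on the log2 scale (SE 0.33, 95% interval -0.31 to 1.09, adjusted p = 0.383, limma), and under NTS-1 it was 0.02 (interval -0.73 to 0.77).

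The vehicle mice differed among themselves by their number in the labels. Pck1 was 1156.61 to 2289.43 in vehicle mice 1 to 5, 2386.12 in mouse 6 and 4052.8 to 4994.68 in mice 7 to 10. Dbp, a direct output of the circadian clock, was 50.22 to 120.38 in mice 1 to 5, 194.44 in mouse 6 and 650.76 to 1616.36 in mice 7 to 10. Pck1 and Dbp were thus both high in the same 4 vehicle livers, and the labels give no reason for the difference between the numbers. The samples are listed in the order vehicle mice 1 to 5, NTS-1 mice, vehicle mice 6 to 10, TS-2 mice. No label says whether this order reflects separate handling. Dbp was 1951.72, 5106.23, 64.53, 3442.33 and 208.79 in the TS-2 mice and 67.61 to 85.78 in the NTS-1 mice. The TS-2 livers 1, 2 and 4 lay above every vehicle liver and the NTS-1 livers lay with vehicle mice 1 to 5. Dbp itself did not pass the test under TS-2 (log2 change 1.91, adjusted p = 0.138, limma). Of 14 clock genes 7 did, with Per2 counted, 5 of them higher, such as Per1 (0.83), and 2 lower, Cry1 (-1.08) and Clock (-0.50). Of all genes 38.9% were called, 23.8% higher and 15.1% lower. Per2, among those higher, was 15.94 to 26.17 in vehicle livers, 22.59 to 24.55 in NTS-1 livers and 27.11 to 83.72 in TS-2 livers. Only TS-2 livers reached the limit of 32 used for testing genes, so no fold change or p is given for Per2. Its call was possible only through the group in which it was high and carries no weight in the 7. The part of the clock genes in the results on the 8 genes was not tested. For Pck1 the choice of vehicle mice decided the call: against mice 1 to 5 alone it was higher under TS-2 (1.02, adjusted p = 0.0108, limma), and against mice 6 to 10 alone it was -0.24 (adjusted p = 0.550).

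**Figure D2:**
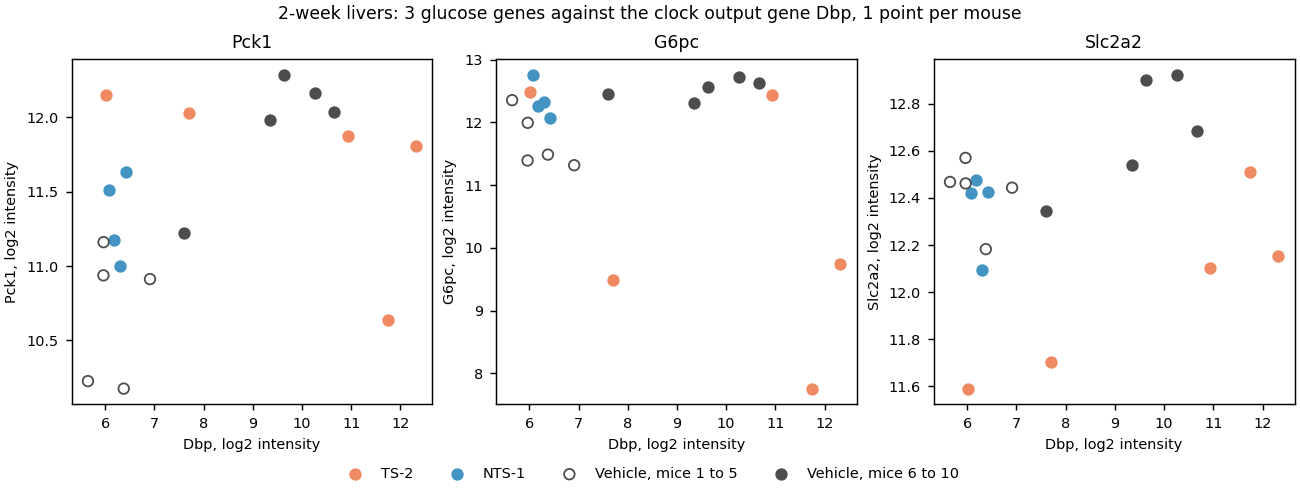
Log2 intensity of Pck1, G6pc and Slc2a2 against that of Dbp in the 2-week livers, 1 point per mouse coloured by group, open for vehicle mice 1 to 5. The 5 TS-2 mice span Dbp intensities of 64.53 to 5106.23, and vehicle mice 7 to 10, at 650.76 to 1616.36, sit apart from vehicle mice 1 to 5, at 50.22 to 120.38.

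Pck1 had 3 probe sets. The one described so far was the brightest. On the dimmest probe set the intensity was 12.62, 13.79, 8.01, 11.94 and 11.58 in the TS-2 mice, 21.09, 16.46, 34.34 and 21.34 in the NTS-1 mice and 19.91 to 44.58 in the vehicle mice. All 5 TS-2 livers lay below all NTS-1 and vehicle livers. The limit of 32 used for testing genes was reached in 0 of 5 TS-2 livers, 1 of 4 NTS-1 livers and 6 of 10 vehicle livers, so the probe set could be tested only because of the groups in which it was higher, and no fold change or p is given for it. The brightest and the middle probe set gave 0.39 and 0.58, and neither passed (adjusted p = 0.396 for the middle one, limma). No file used here gives the part of the transcript each one reads.

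**Figure D3:**
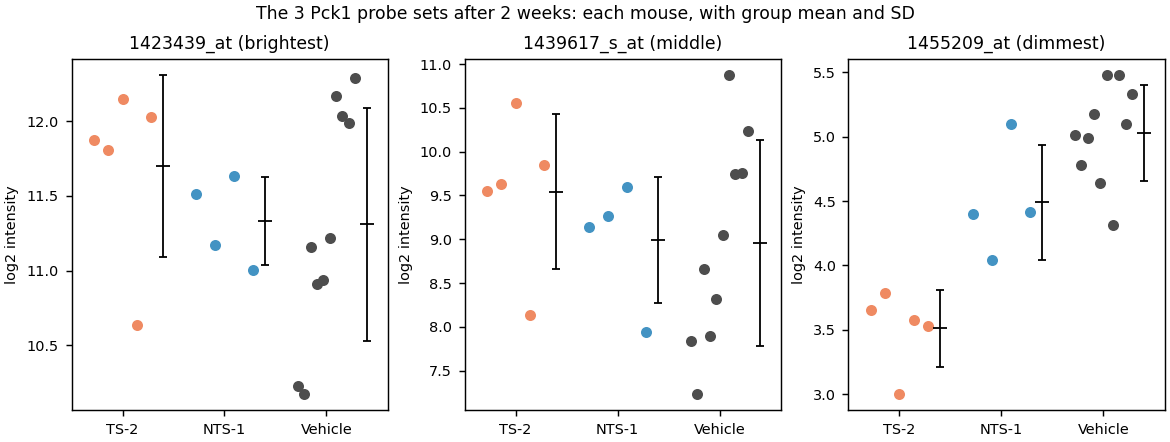
Log2 intensity of the 3 Pck1 probe sets in the 2-week livers, brightest to dimmest, 1 point per mouse with the group mean and SD beside it, TS-2 left of NTS-1 and vehicle. On the dimmest, at intensities of 8.01 to 44.58, the TS-2 points lie below all the others, and on the other 2 the groups overlap.

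Fbp1, the middle enzyme, was bright and narrow in range. It was 16053, 13995.2, 15459.6, 12610.9 and 12910.6 in the TS-2 mice, 15352.4 to 16631.1 in the NTS-1 mice and 11900.8 to 16520.5 in the vehicle mice, with a vehicle median of 14671.5. The groups overlapped, and the whole range over 19 livers was 1.40-fold. The TS-2 change was -0.02 on the log2 scale (interval -0.20 to 0.15, adjusted p = 0.840, limma), the narrowest interval among the 8 genes under TS-2.

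G6pc, the last enzyme, split the TS-2 livers. Its intensity was 5555.64, 854.11, 5729.32, 216.08 and 720.36 in TS-2 mice 1 to 5, 6940.48, 4905.9, 4319.17 and 5131.7 in the NTS-1 mice, and 2553.95 at the lowest, 5163.01 at the median and 6802.78 at the highest in the vehicle mice. TS-2 mice 2, 4 and 5 lay below every NTS-1 and vehicle liver, and mice 1 and 3 lay inside the vehicle range, above its median. The mean change was -1.74 on the log2 scale (SE 0.55, interval -2.89 to -0.60, adjusted p = 0.0161, limma), with 3 of 5 TS-2 mice below the vehicle mean. The call rested on those mice: without TS-2 mouse 4 it was -1.09 (adjusted p = 0.0742) and without mouse 5 it was -1.52 (adjusted p = 0.0552). It also rested on the vehicle mice, in which G6pc was 2553.95 to 5242.55 in numbers 1 to 5 and 5083.46 to 6802.78 in numbers 7 to 10. Against vehicle mice 1 to 5 alone the change was -1.33 (adjusted p = 0.163, limma), and against mice 6 to 10 alone it was -2.16 (adjusted p = 0.0295).

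Set against NTS-1, G6pc was again the gene that differed. It was 3.93-fold lower in TS-2 livers (log2 difference -1.97, SE 0.67, interval -3.38 to -0.57, adjusted p = 0.0416, limma), the 1 call among the 8 genes in a comparison with 22% of all genes called. Leaving out any 1 of the NTS-1 mice ended that call, at adjusted p values of 0.104, 0.0679, 0.0600 and 0.0823, as did leaving out TS-2 mouse 2, 4 or 5. Pklr was -0.62 (adjusted p = 0.0573), Foxo1 0.52 (adjusted p = 0.148) and Slc2a2 -0.34 (adjusted p = 0.151) in the same comparison. In the listed order vehicle mice 6 to 10 stand between the NTS-1 and the TS-2 mice. Separate handling, if there was any, cannot be told apart from gapmer here.

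Slc2a2 fell under TS-2 in a more even way. It was 4402.37, 4552.41, 3081.77, 5840.83 and 3334.95 in the TS-2 mice, 5491.03, 5704.63, 5507.82 and 4377.67 in the NTS-1 mice, and 4648.22 to 7769.3 with a median of 5812.1 in the vehicle mice. Of the 5 TS-2 livers 4 lay below all vehicle livers and mouse 4 lay among them. The change was -0.54 (SE 0.14, interval -0.83 to -0.25, adjusted p = 0.00441, limma), with all 5 TS-2 mice below the vehicle mean, and the call was kept with each of the 19 mice left out in turn. Against vehicle mice 1 to 5 alone it was -0.41 (adjusted p = 0.0551) and against mice 6 to 10 alone it was -0.67 (adjusted p = 0.00853). Vehicle mice 1 to 5 ran from 4648.22 to 6081.44 and mice 7 to 10 from 5958.76 to 7769.3.

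Pklr, the glycolytic enzyme of the group, was 695.66, 624.41, 478.01, 363.63 and 276.85 in the TS-2 mice, 817.21, 749.38, 524.43 and 796.78 in the NTS-1 mice and 436.32 to 742.96 with a median of 634.155 in the vehicle mice. TS-2 mice 4 and 5 were lower than every other liver, and mouse 1 lay near the top of the vehicle range. The mean difference of -0.36 (interval -0.75 to 0.03) did not pass (adjusted p = 0.141, limma). It did pass without TS-2 mouse 1 (-0.51, adjusted p = 0.0364). The other Pklr probe sets gave -0.44 (adjusted p = 0.0798) and -0.40 (adjusted p = 0.0510).

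Among the regulators, Foxo1 rose. Its intensity was 393.61, 591.86, 447.14, 611.44 and 983.85 in the TS-2 mice, 389.65, 398.47, 499.49 and 329.63 in the NTS-1 mice, and 206.47 to 537.58 with a median of 376.63 in the vehicle mice. Mice 2, 4 and 5 of the TS-2 group, the same 3 that had the lowest G6pc, lay above all the other livers. The change was 0.62 (SE 0.21, interval 0.18 to 1.06, adjusted p = 0.0242, limma), with 5 of 5 TS-2 mice above the vehicle mean. Without mouse 5 it was 0.43 (adjusted p = 0.112), without mouse 4 it was 0.60 (adjusted p = 0.0541), and against vehicle mice 6 to 10 alone it was 0.47 (adjusted p = 0.158). Of the 3 other Foxo1 probe sets, with each probe set fitted as its own row and 36.6% of all probe sets called, 1 was higher by 0.98 (adjusted p = 0.000708, limma), another by 0.76 (adjusted p = 0.00233), and the last lay below an intensity of 32 on all 19 arrays. On the one with the larger change the TS-2 mice had 161.95, 307.54, 228.84, 276.73 and 561.55, and the vehicle mice 107.76 to 177.7. The NTS-1 mice had 167.22 to 237.69 on it, overlapping both. Its log2 means were 8.14 under TS-2, 7.67 under NTS-1 and 7.16 in vehicle livers, so it does not set TS-2 alone apart.

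Irs2 and Ppargc1a were close to the limit of detection. Irs2 was 45.75, 43.22, 78.8, 54.36 and 66.81 in the TS-2 mice, 43.58 to 54.39 in the NTS-1 mice and 39.5 to 59.12 with a median of 41.575 in the vehicle mice. TS-2 mice 3 and 5 lay above all the others and the rest overlapped. The rise of 0.38 (SE 0.12, interval 0.12 to 0.64, adjusted p = 0.0194, limma) did not pass without TS-2 mouse 3 (0.26, with an adjusted p of 0.0870), without TS-2 mouse 5 (0.32, adjusted p 0.0699) or against vehicle mice 1 to 5 alone (0.36, adjusted p 0.111). Ppargc1a was 26.44 to 58.14 in the TS-2 mice, 23.53 to 34.45 in the NTS-1 mice and 32.05 to 40.64 in the vehicle mice, and its change was 0.05 (interval -0.23 to 0.33).

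Markers of other liver cells moved in the same livers. The summed level of 8 Kupffer cell and macrophage markers was 2180.05 to 13126.8 in TS-2 livers, 1837.19 to 4665.17 in NTS-1 livers and 1638.45 to 6268.72 in vehicle livers, with Cd68 (1.21) and Marco (1.71) higher under TS-2 and the other 6 not past the test. The sum of 6 sinusoidal endothelial markers was 1176.3 to 3220.78 in TS-2 livers, 1862.54 to 2768.15 in NTS-1 livers and 2972.46 to 5041.24 in vehicle livers, and Clec4g, Fcgr2b, Kdr and Stab2 fell. Their part in the changes of the 8 genes was not tested. Pck1 and G6pc are also kidney genes, and the summed level of 5 kidney markers was 170.54 to 220.81 in TS-2 livers, 214.09 to 245.98 in NTS-1 livers and 206.96 to 830.22 in vehicle livers, and their part was not tested either.

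After a single dose no gapmer changed any of the 6 measurable genes beyond the threshold. Over 8 comparisons with same-time vehicle livers, 0 of 48 tests passed (limma, Benjamini-Hochberg over 9134 genes) and 2 had an unadjusted p under 0.05, both for Pklr at 16 h, where 4.67% of all genes had one under TS-2 and 30.2% under HTS-3. The background differed widely between these comparisons. At 8 h 0.887% of all genes were called under HTS-3, 0% under TS-2 and 0.876% under NTS-1. At 16 h it was 16.9% under HTS-3, 0.0109% under TS-2 and 0.263% under NTS-1, and at 72 h 0.241% under TS-2 and 0% under NTS-1. For the 2 comparisons without a call, 4.17% of genes under TS-2 at 8 h and 2.46% under NTS-1 at 72 h had an unadjusted p under 0.05. With 3 or 4 mice a group, the intervals were wide, as for G6pc under NTS-1 at 8 h (-0.93, interval -1.93 to 0.08).

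**Figure D4:**
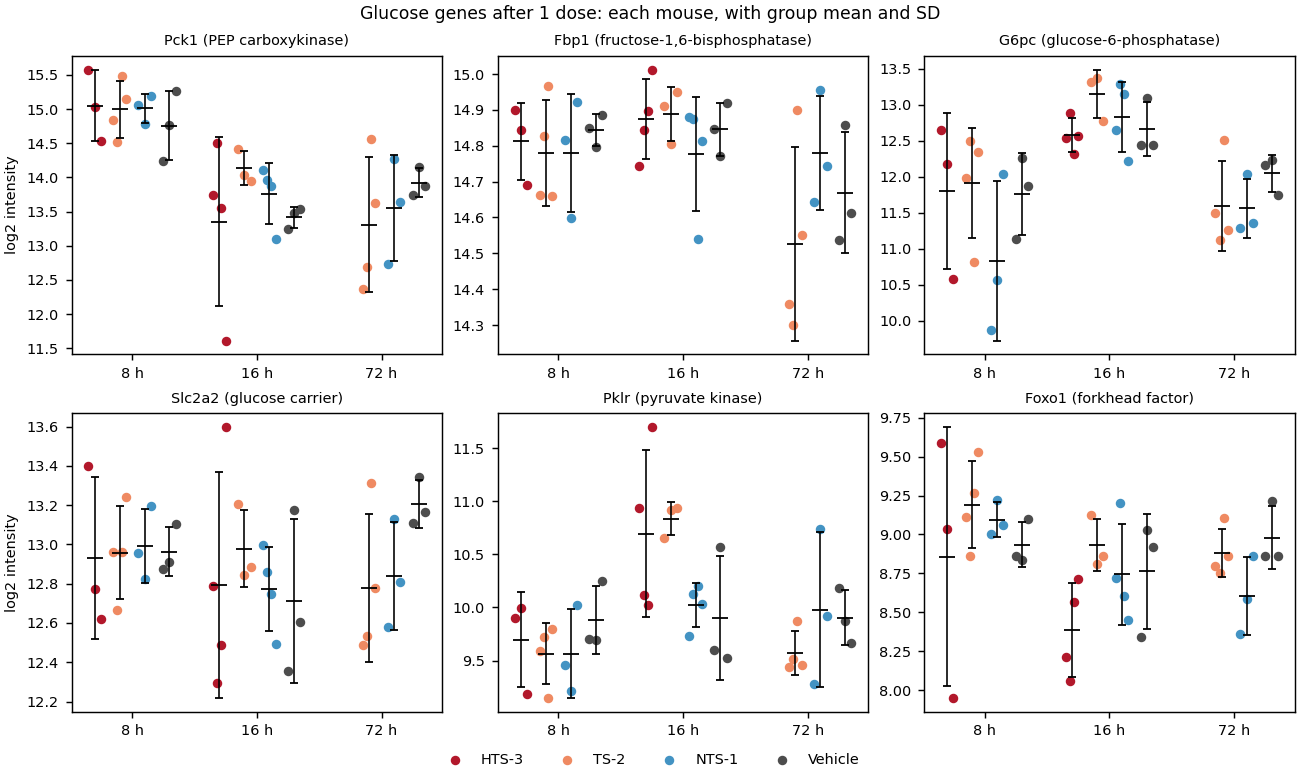
Log2 intensity of the 6 tested genes in the single-dose livers at 8, 16 and 72 h, 1 point per mouse with the group mean and SD as a bar, gapmers left of vehicle at each time. The mean of Pck1 is highest at 8 h for every treatment, and the TS-2 points for Pklr at 16 h, intensities of 1616.97 to 1955.07, lie above the 3 vehicle points.

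Pck1 varied more with time and between mice than with gapmer. At 8 h it was 48901, 33353.1 and 23775.9 in HTS-3 mice, 29227.1, 23486.8, 46036.6 and 36436.7 in TS-2 mice, 34307.6, 28042.1 and 37449.4 in NTS-1 mice and 19423.4, 27809 and 39378.7 in vehicle mice. At 16 h it was 13779, 23263.9, 11979.8 and 3131.39 in HTS-3 mice, 21829.1, 16824.6 and 15742.7 in TS-2 mice, 17696.9, 15995, 14964.8 and 8814.21 in NTS-1 mice and 9693.92, 11425.2 and 11847.1 in vehicle mice. At 72 h it was 5285.38, 6591.09, 24084 and 12615.6 in TS-2 mice, 6803.06, 19852.5 and 12746.1 in NTS-1 mice and 13739.1, 18297.1 and 14978.2 in vehicle mice. Every 8 h group overlapped the others, all 3 TS-2 livers at 16 h lay above the 3 vehicle livers, and HTS-3 mouse 4 at 16 h was the lowest of the 37. The TS-2 difference at 16 h was 0.71 (SE 0.52, interval -0.34 to 1.77, adjusted p = 1, limma). The HTS-3 difference at 16 h was -0.06 (interval -1.05 to 0.92). On the dimmest Pck1 probe set the 4 HTS-3 livers at 16 h held 4.56 to 4.94, at the arrays' floor of 4.56, and the 3 vehicle livers 8.92 to 77.03, so no fold change is given.

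G6pc had a lower mean at 8 h than at 16 h in all 4 treatments. At 8 h it was 6424.97, 4616.83 and 1530.28 in HTS-3 mice, 4066.9, 5780.42, 1802.72 and 5190.12 in TS-2 mice, 941.63, 1523.8 and 4224.99 in NTS-1 mice and 2262.47, 4908.34 and 3750.68 in vehicle mice. At 16 h it was 5945.67, 7572.56, 5114.78 and 6055.88 in HTS-3 mice, 10206.2, 10622.5 and 6977.71 in TS-2 mice, 6441.99, 9998.94, 9074.56 and 4780.73 in NTS-1 mice and 5547.94, 8756.76 and 5581.28 in vehicle mice. At 72 h it was 2883.87, 2240.28, 5831.89 and 2457.56 in TS-2 mice, 2499.9, 4200.76 and 2628.43 in NTS-1 mice and 4585.65, 4797.85 and 3450.01 in vehicle mice. Within each time every gapmer group overlapped vehicle. The largest differences from vehicle were -0.93 under NTS-1 at 8 h and 0.49 under TS-2 at 16 h (both adjusted p = 1, limma).

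Pklr gave both of the unadjusted p values under 0.05. At 16 h it was 1958.38, 1114.18, 1040.89 and 3326.77 in HTS-3 mice, 1616.97, 1931.5 and 1955.07 in TS-2 mice, 847.66, 1120.75, 1175.6 and 1050.59 in NTS-1 mice and 775.55, 1523.45 and 736.96 in vehicle mice. The 3 TS-2 livers lay above the vehicle livers, as did 2 of the 4 HTS-3 livers, and NTS-1 lay within the vehicle range. Under TS-2 Pklr and Pck1 were the 2 of 6 genes whose groups did not overlap, against 12.9% of all genes. That holds for the brightest Pklr probe set alone. On the next probe set TS-2 livers had 799.42 to 929.97 and vehicle livers 282.43 to 810.96. On the dimmest they had 210 to 522.28 and 96.39 to 328.28, so the groups overlapped on both. Pklr differed by 0.94 under TS-2 (SE 0.35, interval 0.21 to 1.66, adjusted p = 0.891) and by 0.80 under HTS-3 (SE 0.33, interval 0.12 to 1.48, adjusted p = 0.0991, limma). Neither passed. The HTS-3 difference passed without vehicle mouse 2 (1.13, adjusted p = 0.0331) and without HTS-3 mouse 3 (1.02, adjusted p = 0.0336). Vehicle mouse 1 at 16 h stood apart in neutrophil markers, which summed to 27890 there against 229 and 479 in the other 2 vehicle livers. Without that mouse Pklr was 0.79 under TS-2 (adjusted p = 1) and 0.65 under HTS-3 (adjusted p = 0.323, limma).

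Pklr at the other times gave no such picture. At 8 h it was 959.08, 1023.56 and 581.25 in HTS-3 mice, 771.11, 844.69, 568.22 and 891.05 in TS-2 mice, 704.91, 591.63 and 1041.15 in NTS-1 mice and 831.71, 830.54 and 1220.65 in vehicle mice. At 72 h it was 693.77, 729.64, 939.63 and 704.52 in TS-2 mice, 619.7, 1705.49 and 970.88 in NTS-1 mice and 1160.53, 935.94 and 810.18 in vehicle mice. The groups overlapped at both times.

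On the probe set tested for each, Foxo1, Slc2a2 and Fbp1 moved little. Foxo1 at 16 h was 297.37, 266.55, 378.31 and 419.95 in HTS-3 mice, 557.17, 448.62 and 465.83 in TS-2 mice, 349.15 to 588.58 in NTS-1 mice and 324.11, 521.36 and 485.29 in vehicle mice. HTS-3 overlapped vehicle through vehicle mouse 1, and its difference was -0.38 (interval -0.88 to 0.13, adjusted p = 0.334, limma). The exact value 465.83 recurred on 6 of the 37 arrays, and those livers have no order among themselves. On another Foxo1 probe set TS-2 livers at 16 h had 252.3 to 261.21 and vehicle livers 128.54 to 230.38, without overlap, as for 12.9% of all genes. Its log2 means at 8 h were 8.20 under TS-2, 8.14 under NTS-1 and 7.63 in vehicle livers. A further one overlapped at 16 h, at 174.51 to 176.9 under TS-2 and 102.54 to 185.7 in vehicle livers. Slc2a2 at 16 h was 7077.22, 5026.51, 5739.25 and 12401.1 in HTS-3 mice and 5244.71, 9248.94 and 6236.98 in vehicle mice, and HTS-3 mouse 4 was the highest of the 37. At 72 h Slc2a2 was 5743.41, 5924.53, 10171.8 and 7027.39 in TS-2 mice and 8827.58, 10412.5 and 9188.92 in vehicle mice, a difference of -0.43 (interval -0.93 to 0.07, adjusted p = 1). Fbp1 stayed between 20166.4 and 33045.6 on all 37 arrays, a 1.64-fold range.

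Comparing the sequences with one another after a single dose gave no call among the 6 genes. The percentage of all genes called was 0.865% for TS-2 against NTS-1 at 8 h, 0.493% at 16 h and 0.263% at 72 h. For HTS-3 it was 1.16% against NTS-1 and 0.526% against TS-2 at 8 h, and 21.4% and 13% at 16 h. G6pc was higher by 1.08 under TS-2 than under NTS-1 at 8 h, with an adjusted p of 0.962. At 16 h Foxo1 was -0.54 in HTS-3 against TS-2 (adjusted p = 0.168) and Pklr was 0.67 in HTS-3 against NTS-1 (adjusted p = 0.123, limma). Moving HTS-3 mouse 3 from the 8 h to the 16 h group, as its description has it, took Foxo1 to -0.63 (adjusted p = 0.0306).

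The effect of a gapmer was also set against its own effect at another time. None of 42 such tests passed, with 2 at an unadjusted p under 0.05 and a lowest adjusted p of 0.342 (limma). Among all genes 3.23% were called for HTS-3 between 16 and 8 h, and for the others 0.0766% (NTS-1, 16 and 8 h), 0.339% (NTS-1, 72 and 8 h), 0.0219% (NTS-1, 72 and 16 h), 0% (TS-2, 16 and 8 h), 0.0766% (TS-2, 72 and 8 h) and 0.0109% (TS-2, 72 and 16 h). All 6 genes were above vehicle under TS-2 at 16 h, with a median of 0.38 against 0.03 for all genes, and all 6 below it at 72 h, with a median of -0.38 against 0.02. None of these 12 differences passed the test, and the genes share the same few mice.

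**Figure D5:**
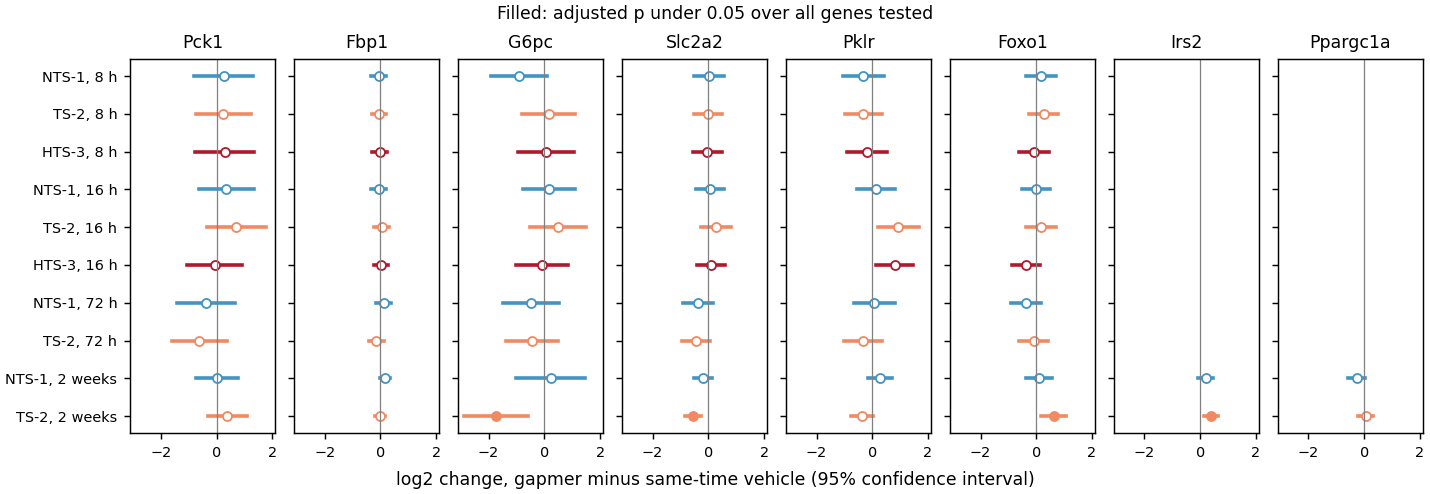
Log2 difference of each gene from same-time vehicle livers, with 95% intervals from limma, for each gapmer and time, with filled points for an adjusted p under 0.05. All single-dose intervals except those of Pklr at 16 h under TS-2 and HTS-3 include 0, and at 2 weeks G6pc and Slc2a2 under TS-2 lie below 0 and Foxo1 and Irs2 above it.

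Vehicle livers alone showed the time course of the untreated gene. Pck1 averaged 28870.4 ± 10019.9 at 8 h, 10988.8 ± 1141.03 at 16 h and 15671.4 ± 2356.75 at 72 h, and G6pc averaged 3640.5 ± 1326.37, 6628.66 ± 1843.06 and 4277.84 ± 724.728 at those times (SD, n = 3 each). The 16 h and 8 h vehicle groups did not overlap for either gene, 2 of 6 genes where 16.1% of all genes did not overlap. Pck1 differed by -1.34 between 16 and 8 h (SE 0.52, interval -2.39 to -0.28, adjusted p = 0.238) and G6pc by 0.90 (SE 0.49, adjusted p = 0.534, limma), so neither passed, in a comparison with 2.11% of genes called. Of 18 such tests over the 3 pairs of times none passed, and 1 had an unadjusted p under 0.05. The percentages called were 1.93% between 72 and 8 h and 0.0219% between 72 and 16 h. In the same livers 7 of 10 clock genes differed between 16 and 8 h, Arntl by 5.41 and Dbp by -6.54.

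The lowest and highest group means on the single-dose arrays put these differences in order. Pck1 was highest in the 4 groups at 8 h, at means of 35343.3 for HTS-3, 33796.8 for TS-2, 33266.4 for NTS-1 and 28870.4 for vehicle, and these do not differ beyond their spread. The lowest means were 12144 ± 8576.34 for TS-2 at 72 h (SD, n = 4) and 10988.8 ± 1141.03 for vehicle at 16 h (SD, n = 3). On the log2 scale TS-2 at 72 h (13.31) and HTS-3 at 16 h (13.35) lay below vehicle at 16 h (13.42), and these 3 do not differ beyond their spread. For G6pc the order ran the other way, with TS-2 at 16 h highest (9268.8 ± 1995.02, SD, n = 3) and NTS-1 at 8 h lowest (2230.14 ± 1751.94, SD, n = 3). Pklr was highest in HTS-3 and TS-2 at 16 h, with means of 1860.06 ± 1062.75 (n = 4) and 1834.51 ± 188.766 (n = 3), which do not differ beyond their spread.

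Other genes of glucose metabolism give the setting, and values for them are log2 changes at an adjusted p under 0.05 (limma) wherever a gene is said to have risen or fallen. Of 120 genes in 5 lists, 110 were on the array and 102 and 110 were tested in the single-dose and 2-week sets. Under TS-2 at 2 weeks 40 of 110 passed, 31 higher and 9 lower, a share near the 38.9% of all genes. Over all genes 23.8% were higher and 15.1% lower. Insulin signalling had 11 of 24 higher and none lower, with a median of 0.32, and against vehicle mice 6 to 10 alone 8 were higher and 1 lower. Foxo3, a second FoxO factor, rose by 1.66, Gsk3b, the kinase that restrains glycogen synthase, by 1.11 and Pik3cb, a catalytic subunit of phosphoinositide 3-kinase, by 0.82. Foxo3 was 663.71 to 1742.61 in TS-2 livers, 295.01 to 446.12 in NTS-1 livers and 248.38 to 447.74 in vehicle livers, without overlap. Glucagon, cAMP and glucocorticoid control had 10 of 30 higher and none lower, or 8 higher and 2 lower against vehicle mice 6 to 10 alone. Those higher included the transcription factors Cebpb (1.47) and Hnf4a (0.86) and the kinase Sik1 (1.03), which restrains the CREB coactivators. Cebpb was 1922.38 to 4181.72 in TS-2 livers, 921.94 to 1201.54 in NTS-1 livers and 643.06 to 1431.35 in vehicle livers.

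The uptake and glycolysis list moved in both directions under TS-2. Of 19 genes 3 rose and 6 fell, with a median of 0.18. Those that fell most were Slc2a9, a urate and hexose transporter, by 1.72, Gckr, the regulatory protein that holds glucokinase in the nucleus, by 1.68, and Mlxipl, which encodes the carbohydrate-response factor ChREBP, by 1.16. Gckr was 225.18 to 1020.35 in TS-2 livers, 1216.06 to 1500.06 in NTS-1 livers and 1348.13 to 2200.75 in vehicle livers, without overlap. Pklr, a known target of ChREBP, did not pass in the same livers, as given above. In the list of other gluconeogenesis and glucose output genes 5 of 21 rose and 1 fell, with a median of 0.17. The mitochondrial glycerol-3-phosphate dehydrogenase Gpd2 rose by 1.01, the alanine aminotransferase Gpt by 0.77 and the malate dehydrogenase Mdh2 by 0.53. Of 16 glycogen genes 2 rose, among them the primer protein Gyg (1.13), and 2 fell, the phosphatase subunit Ppp1r3c (-1.03) and the phosphoglucomutase Pgm1 (-0.63). The Pgm1 call was lost in 21 of 31 alternatives, with -0.38 (adjusted p = 0.211) without TS-2 mouse 4 as the smallest change, and that of Ppp1r3c against vehicle mice 6 to 10 alone (-0.85, adjusted p = 0.0887, limma). Against vehicle mice 1 to 5 alone 40 of the 110 passed and against mice 6 to 10 alone 35. For the TS-2 list counts against part of the vehicle mice, here and above, the share of all genes called is not given. Those counts are therefore not compared with a background.

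Under NTS-1 at 2 weeks 9 of the 110 passed, against 5.43% of all genes. Gpd2 (0.59), Gapdh (0.33), Tpi1 (0.30), Gaa (0.55), Hnf4a (0.52) and Prkaca (0.38) were higher, and Txnip (-0.96), Mlx (-0.50) and Pgm2 (-0.46) were lower. Txnip, which encodes a glucose-induced inhibitor of glucose uptake, was 237.41 to 338.12 in NTS-1 livers and 400.5 to 851.99 in vehicle livers. Against vehicle mice 1 to 5 alone 0 of 110 passed, where 1 of all genes did, and against mice 6 to 10 alone, as many mice, 7 passed. For mice 6 to 10 the share of all genes called is not given, so the 7 have no background beside them. The changes against mice 1 to 5 were 0.29 to 0.74 for the 6 genes that had been higher and -0.68 to -0.44 for the 3 that had been lower. The 9 genes had been called with the same NTS-1 mice and with these vehicle mice included, so the shared direction is no separate support.

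After a single dose genes of these lists passed under HTS-3 at 16 h alone, 16 of 102, 6 higher and 10 lower, where 16.9% of all genes were called, 8.05% higher and 8.81% lower. With array weights 5 list genes also passed under TS-2 at 16 h, all higher, and 1 under NTS-1 at 16 h, and under HTS-3 26 passed, 15 higher and 11 lower. The shares of all genes called with array weights are not set beside these counts. The counts are therefore not read as a trait of the glucose lists. Fitted on the compared groups alone, 3 of the 16 HTS-3 calls remained, Gys2, Pgm1 and Gbe1, all lower, and none higher. Glycogen genes made up 6 of the 16, 1 higher and 5 lower. Gys2, the liver glycogen synthase, fell by 2.11, Pgm1 by 1.73 and the branching enzyme Gbe1 by 1.14. Gys2 was 245.19 to 532.27 in HTS-3 livers and 1516.62 to 1951.96 in vehicle livers, without overlap. Of 23 insulin signalling genes 3 fell, Irs1, another adaptor of the insulin receptor, by 2.28, the phosphatase Ptpn1 by 1.81 and the adaptor Grb14 by 0.65. Of 29 genes of glucagon, cAMP and glucocorticoid control 5 rose and 2 fell, with Fgf21 at 1.47, Kat2a at 1.06 and the adenylyl cyclase Adcy9 at -1.44. On average Fgf21 was under the intensity limit of 32 in vehicle livers (log2 mean 4.15) and above it in HTS-3 livers (5.62). The size of the Fgf21 rise is therefore uncertain. None of 19 other gluconeogenesis genes and none of 16 uptake and glycolysis genes passed. Without vehicle mouse 1 at 16 h 13 of the 102 were called, 3 higher and 10 lower, and Fgf21 (1.53, adjusted p = 0.0537) and Kat2a (0.86, adjusted p = 0.121) were not among them. Without HTS-3 mouse 1 Fgf21 was 1.13 (adjusted p = 0.0876) and Grb14 -0.61 (adjusted p = 0.0726), without HTS-3 mouse 2 Grb14 was -0.63 (adjusted p = 0.0629), and without HTS-3 mouse 4 Kat2a was 0.78 (adjusted p = 0.0985, limma). Without vehicle mouse 2 Fgf21 had an adjusted p of 0.0501 and Grb14 one of 0.130, and without vehicle mouse 3 all 3 failed, at adjusted p values of 0.0782 for Fgf21, 0.143 for Grb14 and 0.0626 for Kat2a. Irs1 (adjusted p = 0.0658), Ptpn1 (0.0781) and Adcy9 (0.0504) were among those that missed the threshold with the compared groups alone. In those livers Kdr and Stab2 (-1.53) fell too, out of 6 sinusoidal endothelial markers on the array, 5 of them tested. The summed level of the 6 was 6209.86 to 11692.2 in HTS-3 livers and 11088 to 13909.3 in vehicle livers at 16 h, with overlap. The part of endothelial markers in these changes was not tested.

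In vehicle livers 9 of the 102 list genes differed between 16 and 8 h, 3 higher and 6 lower, where 2.11% of all genes were called. Each time had its own 3 mice, and vehicle mouse 1 at 16 h was the one apart in neutrophil markers. Time cannot be told apart from other differences between these mice. Named after their values were seen, Pdk4, a kinase that blocks entry of pyruvate into the citric acid cycle, was higher by 2.72 at 16 h, and the glycogen phosphatase subunits Ppp1r3b and Ppp1r3c by 1.80 and 1.94. Ppp1r3b was 3188.28 to 4680.51 at 16 h and 871.46 to 1417.41 at 8 h. Lower at 16 h were Trib3, an inhibitor of the kinase Akt (-2.80), Pfkfb3, which makes the activator of phosphofructokinase (-2.14), the coactivator Ppargc1b (-1.70), the glycogen-binding protein Stbd1 (-1.37), the transcription factor Klf15 (-0.94) and Ugp2, which makes UDP-glucose for glycogen (-0.65). Pdk4 at 8 h and Pfkfb3 at 16 h were close to or under the limit of 32, with log2 means of 5.20 and 4.60.

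The genes whose level ran most like each of the 6 over the 37 single-dose arrays are a description, since these arrays share times, gapmers and processing. For Pck1 they were Errfi1 (Pearson's r 0.812), Rasgef1b (0.804) and Pim3 (0.781), and for G6pc Ythdc1 (0.686), St13 (0.681) and Mpi (0.670). For Pklr they were Tkfc (0.873), the triokinase of fructose metabolism, Abcd3 (0.806) and Usp5 (0.792). Foxo1 ran most like Foxo3 (0.833), then Gfra1 (0.808) and Qk (0.804). Slc2a2 ran most like Rnf128 (0.797), Siae (0.785) and Hgsnat (0.777), and Fbp1 most like Col4a2 (0.762), Tax1bp1 (0.740) and Ppil2 (0.732). Between the genes themselves r was highest for G6pc and Pklr (0.647) and for Slc2a2 and Foxo1 (0.626), while Pck1 and G6pc had an r of -0.105 over the same arrays.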

How the data were processed

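Liver RNA was hybridised to Affymetrix mouse arrays, 1 mouse per array and 56 in all. The authors deposited intensity values on a linear scale, made with RMA per the submitters' processing notes, whose version and options no source used here gives. Log2 values had been assumed when the tests were laid out. The values were converted to log2 after inspection. Of 45101 probe sets 34958 had 1 gene in the platform annotation, 932 several and 9211 none, and those with a single gene were kept. A gene with several probe sets was taken from the 1 with the highest mean. Genes had to reach an intensity of 32 on at least 3 arrays of a set.

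Each set was fitted with limma 3.58.1 in R 4.3.3 as group means with empirical Bayes moderation, and p-values were adjusted by Benjamini-Hochberg over all genes tested in a comparison, at 0.05. Gapmers were compared with same-time vehicle, with one another, and between times. The fit was tested on simulated data. Tables and figures used python 3.11.15, pandas 2.3.3, numpy 2.4.6 and matplotlib 3.10.9. Precision is limited by how many arrays a group has. Of 837 pairs of arrays within a set none held identical values. The p-values measure the spread between these mice.

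The 8 genes, gene lists and tests were chosen with earlier results of these data known. Named in the text are the 8 genes and all their probe sets, up to 3 genes of each list per gapmer-vehicle comparison past the test with the largest change, and the 3 genes most correlated with each. Alternatives were other filters and none, the mean of probe sets or each on its own, quantile normalization, array weights, the compared groups alone, a variance trend, a replicate block, the Actb 3'/5' ratio as a covariate, vehicle mice 1 to 5 or 6 to 10 alone, the HTS-3 mouse with conflicting times moved, and each mouse left out. Deviations of mice sharing a number had correlations of -0.476 to 0.459, so the numbers were not treated as pairs. All were positive for TS-2 against vehicle at 8 h (0.095 to 0.414) and 16 h (0.078 to 0.228). The same held for HTS-3 against TS-2 at 16 h (0.015 to 0.033), and the other comparisons were mixed or negative.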

Additional observations from a re-analysis of the deposited data

Results flagged for a closer look

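In groups of 4 to 10 mice, 4 of 48 gene and group pairs had a mouse set apart from the rest of its group by Dixon's limit, which chance alone passes in about 1 of 20. Pck1 was lowest in TS-2 mouse 4 at 2 weeks, at 1592.35, where the other 4 had 3579.62 to 4539.78. Pklr was highest in TS-2 mouse 3 at 72 h, at 939.63, where the others had 693.77 to 729.64. Irs2 was highest in vehicle mouse 2 at 2 weeks, at 59.12, where the others had 39.5 to 45.16. Slc2a2 was lowest in NTS-1 mouse 4 at 2 weeks, at 4377.67, where the others had 5491.03 to 5704.63.

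In 3 cases every mouse of a gapmer lay on one side of the vehicle mean at one time and on the other side at another. The TS-2 effect on Pklr was 1.25 larger on the log2 scale at 16 h than at 8 h (SE 0.49, adjusted p = 1, limma), with mice 0.76 to 1.03 above the vehicle mean at 16 h and between -0.73 and -0.08 at 8 h. The same effect at 72 h minus that at 16 h was -1.27 (adjusted p = 1). The NTS-1 effect on Foxo1 at 72 h minus that at 8 h was -0.54 (SE 0.38, adjusted p = 1). None of the 3 differences passed the test.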

How the results depend on the processing

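None of the 5 changes of the 8 genes that passed turned sign under any alternative, and 79 of the 169 that did not pass turned under at least 1. Changes that pass lie further from 0 for their spread, and the alternatives reuse the same mice. This difference in turned signs therefore follows largely from the choice by test and is no support for the calls. Pck1 under TS-2 at 2 weeks (0.39) was -0.24 against vehicle mice 6 to 10 alone and -0.18 with the mean of its probe sets, and at 16 h (0.71) it was -0.02 at the lowest. The 4 genes called under TS-2 at 2 weeks became 2 with the replicate block (Foxo1 at 0.78 and Pck1 at 1.02) and 2 against vehicle mice 1 to 5 alone, and 1 to 5 with a mouse left out. The block is the mouse number, and at 2 weeks only vehicle mice have numbers 6 to 10. Those mice therefore do not enter a gapmer change under the block, which is no separate alternative to vehicle mice 1 to 5 alone. The single call between sequences, G6pc, became 0 with the compared groups alone, with the replicate block and against either set of vehicle mice, 2 with quantile normalization, array weights, the Actb covariate or the HTS-3 mouse moved, and 0 to 3 with a mouse left out. The 0 calls against same-time vehicle after a single dose became 3 with array weights, 1 with the Actb covariate and 0 to 1 with a mouse left out. Those between vehicle times became 1 with array weights and stayed at 0 with a mouse left out, as did changes between times. List genes called against vehicle numbered 65, 98 with array weights and 57 to 74 with a mouse left out. With a mouse left out the TS-2 change was 0.43 to 0.76 for Foxo1, -2.27 to -1.09 for G6pc, 0.26 to 0.48 for Irs2 and -0.66 to -0.43 for Slc2a2, and G6pc against NTS-1 was -2.50 to -1.32. Calls over all genes under HTS-3 at 16 h numbered 1540, 269 with the compared groups alone, 2347 with array weights, 2380 with the Actb covariate, 966 with the HTS-3 mouse moved and 1002 to 1848 with a mouse left out. Under NTS-1 at 2 weeks they numbered 750, 2033 with array weights, 1169 with the Actb covariate, 0 with the replicate block, 1 against vehicle mice 1 to 5 alone and 173 to 1339 with a mouse left out. Genes near the floor, such as Irs2 and Ppargc1a, are limited by signal over background.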
